A study of Homo sapiens with 24 samples.

Results

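The integrin and laminin genes were read out across 4 human cancer cell lines in which IGF2BP1, an oncofetal protein that binds and stabilises mRNAs, had been depleted. Their members were the protein-coding genes whose symbols name an integrin alpha subunit, an integrin beta subunit or a laminin chain, which gave 38 genes (26 integrin and 12 laminin genes) of 58174 genes listed, of which 19799 were protein-coding. The lines were A549 (lung cancer), ES2 (ovarian cancer), MV3 (melanoma) and PANC1 (pancreatic cancer). Each line received either a control siRNA (siC) or an siRNA pool directed at IGF2BP1 (siI1), and total RNA was sequenced after ribosomal RNA depletion from 3 biological replicates per condition, so that 24 libraries formed 8 groups. Cells were harvested at 72 h, or at 96 h for PANC1, so that line and harvest time cannot be told apart for PANC1. A single siRNA pool was used, and each cell type was represented by 1 line. Levels are given as FPKM (read counts scaled to gene length and to library size), and effects as log2 fold changes of siI1 against siC on the log2(FPKM + 0.5) scale with their standard errors (SE), called at a limma adjusted p under 0.05. Library values are given in the order of replicates 1, 2 and 3, siC before siI1.

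Integrins are receptors built of an alpha and a beta subunit that span the cell membrane, bind the extracellular matrix or other cells on the outside and connect to the actin or keratin cytoskeleton on the inside. ITGB1 pairs with most of the alpha subunits expressed by adherent cells, ITGAV pairs with several beta subunits to bind vitronectin and fibronectin, and ITGA3 and ITGA6 form laminin receptors. Laminins are secreted as cross-shaped trimers of an alpha, a beta and a gamma chain and form the sheet of the basement membrane to which epithelial cells attach.

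The libraries held between 3105215 and 4553326 gene-mapped reads in A549, 6421764 to 8419467 in ES2, 15572492 to 20082702 in MV3 and 6532175 to 8472851 in PANC1, so that low members were measured least precisely in A549. IGF2BP1 itself was lower in every siI1 library than in any siC library of its line, and its log2 fold change was -1.32 (A549), -1.55 (ES2), -1.52 (MV3) and -1.83 (PANC1) (limma adjusted p = 0.000319, 0.000115, 5.93e-05 and 0.000227). Markers of the labelled tissues were partly absent. In MV3, the melanocyte genes SOX10, TYR, DCT and S100B were at 0 FPKM in all 6 libraries. In A549, NKX2-1, SFTPB and SFTPA1 of lung epithelium were at 0, and in ES2, MUC16 was at 0, whereas KRT19 was at 547 to 879 FPKM in PANC1. The keratin-dominated marker list of pancreatic carcinoma summed to 1129 to 1236 FPKM in siC and to 518 to 548 FPKM in siI1 libraries of A549. The same sums were 155 to 171 FPKM in siC and 200.05 to 229 FPKM in siI1 libraries of ES2, 1338 to 1760 and 2060 to 2213 FPKM in PANC1, and 24.04 to 25.6 and 21.3 to 24.6 FPKM, with overlap, in MV3. Their contribution to the results below was not tested. Of 7 markers of leukocytes, which use several integrins of their own, CD3E and MS4A1 were at 0 in all libraries, PTPRC did not exceed 0.0332 FPKM, and CD14 in A549, at 2.06 to 5.36 FPKM, was the one that passed 0.5 FPKM in mean. In bulk RNA, fewer cells of a type and less RNA per cell cannot be told apart. In PANC1, the signal recognition particle RNA gene RN7SL2 went from 263872 to 425337 FPKM in siC to 605711 to 769585 FPKM in siI1 libraries, and scaling each library to the same sum shifted the overall median effect from -0.04 to -0.68 on the log2 scale. PANC1 values are therefore given relative to the bulk of its genes, with the same-sum value beside each call of a member that it ended or turned. Some members without a call in PANC1 were called lower in that scaling, such as ITGAV (-0.88) and LAMC3 (-1.01) (limma adjusted p = 0.00623 and 0.0122). The contribution of RN7SL2 was not tested.

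Upon IGF2BP1 knockdown, integrin and laminin genes changed in all 4 lines, but in a different balance in each. In ES2, 13 of 23 tested members rose and 3 fell, beside 10.5% and 13.0% of all tested genes, and the median log2 fold change of the members was 0.40 (all genes, -0.02). In MV3, 9 of 20 tested members rose and 5 fell (background 16.3% and 19.5%), with a median of 0.15 (all genes, 0.01). In A549, 5 of 22 tested members rose and 7 fell (background 5.93% and 7.83%), with a median of -0.05 (all genes, -0.01), and in PANC1 4 of 19 rose and 4 fell (background 11.3% and 13.4%), with a median of -0.21 (all genes, -0.04). Same-sum scaling gave 14 members lower and 0 higher in PANC1 by limma (15 and 0 at an unadjusted p under 0.05). Over all 16238 genes tested in that scaling, limma called 8870 lower and 96 higher. The members that were not called numbered 10, 7, 6 and 11 in A549, ES2, MV3 and PANC1. In 5, 3, 1 and 7 of these the siC and siI1 libraries did not overlap. How many of all uncalled genes were without overlap was not counted, so nothing is concluded from these numbers. Of the tested members, ITGA1 and ITGB3 in A549, ITGA10 and ITGA11 in ES2 and ITGB8 in PANC1 had a mean under 0.5 FPKM in 1 condition and passed the filter on low values through the other.

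Over all lines, 29 members were tested in at least 1 line, 24 of these were called in at least 1 line, and 13 were tested in all 4. The share of all genes called in at least 1 line was not counted, so 24 of 29 has no background beside it. LAMC1 rose in all 4 lines, and ITGB1, ITGA5 and LAMA4 rose in 3. LAMB3 and ITGA6 fell in 3 lines. ITGA11, ITGA2, ITGA3 and LAMB2 rose in 1 line or more and fell in another. The ITGA3 rise and the LAMB2 fall were each called in 1 line and lost in most fits without 1 library. In the joint limma fit over 24 libraries, the knockdown effect differed between lines for 11 of the 13 members tested everywhere, beside 45.0% of all 12816 genes tested everywhere. LAMC1 (adjusted p = 0.172) and ITGAE (adjusted p = 0.323) were the members whose effects were not shown to differ. Under same-sum scaling 12 members were called, LAMC1 among them (adjusted p = 6.25e-05), beside 70.0% of all genes. ITGA1, ITGAM, LAMA2, LAMB4 and LAMC3 were tested and not called in any line. The 9 members ITGA2B, ITGA7, ITGA8, ITGA9, ITGAD, ITGAL, ITGAX, ITGB7 and LAMA1 stayed under the filter in each line, with a highest group mean of 0.228 FPKM, and most of these integrins are known from blood cells, platelets, muscle or nerve.

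**Figure D1:**
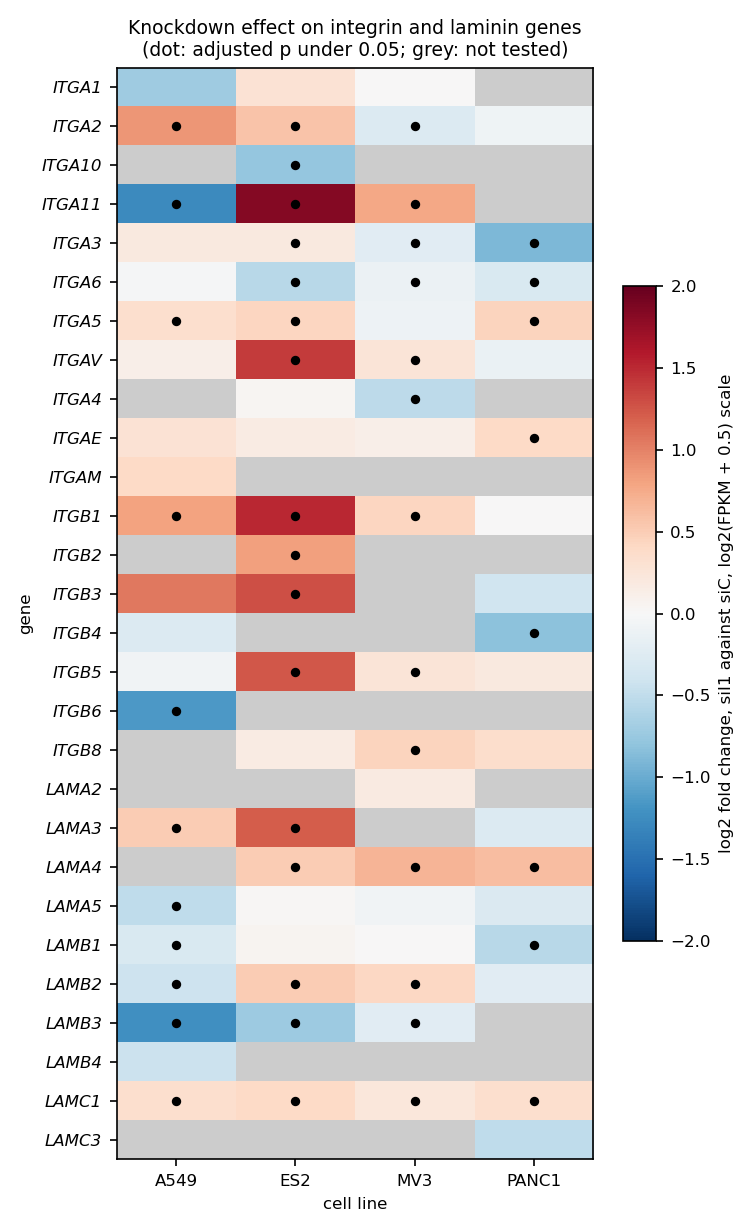
Log2 fold change of siI1 against siC (colour, log2(FPKM + 0.5) scale) for 28 integrin and laminin genes tested in at least 1 line (rows) in the 4 cell lines (columns), with a dot where the limma adjusted p was under 0.05 and grey where the gene was not tested. ES2 has the deepest red cells, LAMC1 is called higher in all 4 columns, and LAMB3 and ITGA6 are called lower in 3. Under same-sum scaling the called PANC1 rises of LAMC1, ITGA5 and ITGAE turn negative, as do the uncalled PANC1 values of ITGB1, ITGB5 and ITGB8.

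ITGB1 had the highest siC mean of all members in each line. Its gene lies at hg38 chr10:32887273-33005792 on the minus strand. In A549 it was at 332, 349.7 and 313 FPKM in the siC libraries and at 558, 573 and 608 FPKM in the siI1 libraries. In ES2 the levels were 83.4, 77.9 and 92.3 FPKM under siC and 231, 242 and 248 FPKM under siI1. In MV3 they were 129, 131 and 129.9 against 181, 172 and 172 FPKM. Every siI1 library of these 3 lines was thus above every siC library of its line, and the log2 fold changes were 0.81 in A549, 1.51 in ES2 and 0.43 in MV3 (limma adjusted p = 0.00127, 0.000116 and 0.000291). PANC1 stood apart, with 151, 148 and 166 FPKM in siC and 154, 161 and 152 FPKM in siI1 libraries. There the groups overlapped, with a log2 fold change of 0.01 (adjusted p = 0.927), and the effect differed between lines (joint limma adjusted p = 1.07e-09). In the same-sum scaling the PANC1 value was -0.74, against a median of -0.68 over all genes.

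The RefSeq window of 250 bases before the ITGB1 start (GRCh38.p14, chr10:32958231-32958480, minus strand) is shown because ITGB1 made up most of the summed beta subunit FPKM and rose in 3 lines. Capitals mark GGGCGG (the SP1 motif) or its reverse complement, and GGAATG (a TEAD motif).
ITGB1: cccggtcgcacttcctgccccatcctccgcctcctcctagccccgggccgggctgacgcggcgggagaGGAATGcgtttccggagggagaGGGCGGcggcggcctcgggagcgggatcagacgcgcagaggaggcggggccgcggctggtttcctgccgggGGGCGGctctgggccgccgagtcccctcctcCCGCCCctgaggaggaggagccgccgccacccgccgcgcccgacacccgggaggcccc
It held 3 SP1 matches and 1 TEAD match, and no AP-1 match (TGANTCA). The window before another RefSeq start of ITGB1 (chr10:32935559-32935808) held 3 TATAAA matches and none of the other motifs. Of 35116 RefSeq windows of this length, 42.6% held the SP1 motif, 11.9% the TEAD motif and 6.57% the AP-1 motif, on either strand. Windows were found for 26 of the 38 members, and 14 of these genes had an SP1 match, 4 a TEAD match, 2 an AP-1 match, 2 a TATAAA match and 1 (ITGB6) a match to the CArG box of SRF, which 1.16% of all windows held, as 10.7% held TATAAA. A match describes letters in a window and is no evidence of binding.

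Among the other beta subunits, ITGB5, the vitronectin-binding partner of ITGAV (chr3:124761948-124901418, minus strand), rose in ES2 from 30.3, 30.4 and 31.7 to 73.7, 72.8 and 74.4 FPKM. In MV3 it was at 30.6, 31.6 and 29.3 FPKM in siC and at 35.6, 37.4 and 36.8 FPKM in siI1 libraries. Neither pair of groups overlapped, with log2 fold changes of 1.24 in ES2 and 0.26 in MV3 (limma adjusted p = 5.55e-05 and 0.00308). In A549 the levels of 48.2, 45.3 and 46.3 against 42.1, 47.6 and 43.9 FPKM overlapped. In PANC1, 55.7, 59.2 and 55.2 FPKM in siC stood below 63.6, 70.1 and 61.5 FPKM in siI1 libraries without a call (adjusted p = 0.0776). Under same-sum scaling the PANC1 value was a called fall of -0.55 (limma adjusted p = 0.0103), against a median of -0.68 over all genes. The effect of the knockdown on ITGB5 differed between lines (joint limma adjusted p = 7.52e-10).

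ITGB3, another partner of ITGAV (chr17:47253827-47313743, plus strand), was near the filter in ES2, at 0.532, 0.5203 and 0.536 FPKM in siC libraries, and rose to 2.19, 1.83 and 2.07 FPKM, a log2 fold change of 1.30 (limma adjusted p = 0.001996) that rested on 15 to 77 reads per library. In A549 it went from 0.335, 0.572 and 0.311 to 1.63, 1.501 and 1.03 FPKM with no overlap, which did not pass the test (log2 fold change 1.05, adjusted p = 0.0577), and in PANC1 from 3.13, 2.81 and 3.14 to 1.66, 2.54 and 2.44 FPKM (adjusted p = 0.111). The MV3 group means were 0.156 and 0.114 FPKM. ITGB6, an epithelial partner of ITGAV that activates latent TGF-beta (chr2:160099667-160200313, minus strand), was tested in A549 alone. There it fell from 4.899, 4.07 and 4.31 to 1.96, 1.38 and 1.86 FPKM without overlap (log2 fold change -1.15, limma adjusted p = 0.007004). ITGB8, which also binds latent TGF-beta, rose in MV3 (0.45). ITGB4, the partner of ITGA6 in hemidesmosomes, fell in PANC1 from 4.81 ± 0.513 to 2.49 ± 0.136 FPKM (mean ± SD, n = 3; log2 fold change -0.82, limma adjusted p = 0.00298), whereas its A549 value of -0.27 was not called.

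ITGB2, the common beta subunit of the leukocyte integrins, went up in ES2 from a mean of 7.78 ± 0.315 to 14.2 ± 0.799 FPKM (SD, n = 3; log2 fold change 0.82, limma adjusted p = 0.000584). The leukocyte genes PTPRC, CD3E and MS4A1 were at 0 in the same ES2 libraries. The antisense gene ITGB2-AS1 was listed at 7.09 to 8.42 FPKM in the siC and at 5.52 to 6.31 FPKM in the siI1 libraries of ES2. The library kit kept the strand, but the strand setting of the counting was not given in the sources used here, so reads of the pair may be shared.

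Among the alpha subunits, ITGAV (chr2:186590010-186680901, plus strand) rose in ES2 from 7.47, 7.43 and 7.78 to 20.7, 21.6 and 19.9 FPKM. In MV3 it went from 20.3, 20.2 and 21.4 to 25.9, 23.8 and 24.6 FPKM. The groups did not overlap in these lines, with log2 fold changes of 1.40 and 0.26 (limma adjusted p = 8.85e-05 and 0.00478). The MV3 call was lost with libraries scaled to the same sum (adjusted p = 0.0701). In A549 (59.8, 72.1 and 59.01 FPKM in siC, 66.5, 70.6 and 68.2 FPKM in siI1) and in PANC1 (57.4, 54.8 and 64.3 against 51.6, 53.6 and 55.9 FPKM) the libraries overlapped. ITGAV was the alpha subunit with the highest siC mean in these last lines, at 63.6 and 58.8 FPKM (in PANC1 overlapping with ITGA3), against 7.56 FPKM in ES2. The effect differed between lines (joint limma adjusted p = 3.24e-09).

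ITGA5, the fibronectin receptor subunit that pairs with ITGB1 (chr12:54395261-54419266, minus strand), rose in 3 lines. In A549 it was at 11.1, 10.9 and 12.4 FPKM in siC and 14.4, 15.004 and 14.5 FPKM in siI1 libraries, in ES2 at 10.9, 12.3 and 10.4 against 16.1, 14.3 and 15.2 FPKM, and in PANC1 at 11.2, 12.6 and 11.5 against 16.5, 16.3 and 15.9 FPKM. No groups overlapped in these lines, and the log2 fold changes were 0.34 in A549, 0.43 in ES2 and 0.45 in PANC1 (limma adjusted p = 0.0258, 0.0108 and 0.00436). In MV3, which had the highest siC level, 27.2, 27.1 and 25.3 FPKM overlapped with 22.9, 26.3 and 24.8 FPKM, and the log2 fold change was -0.10 (adjusted p = 0.211). The A549 call was lost in 5 of 6 fits without 1 library (each but the one without siC replicate 3; adjusted p = 0.0696 to 0.0903). In PANC1 the same-sum value was -0.28 (adjusted p = 0.163), which is 0.41 above the median of all genes in that scaling.

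**Figure D2:**
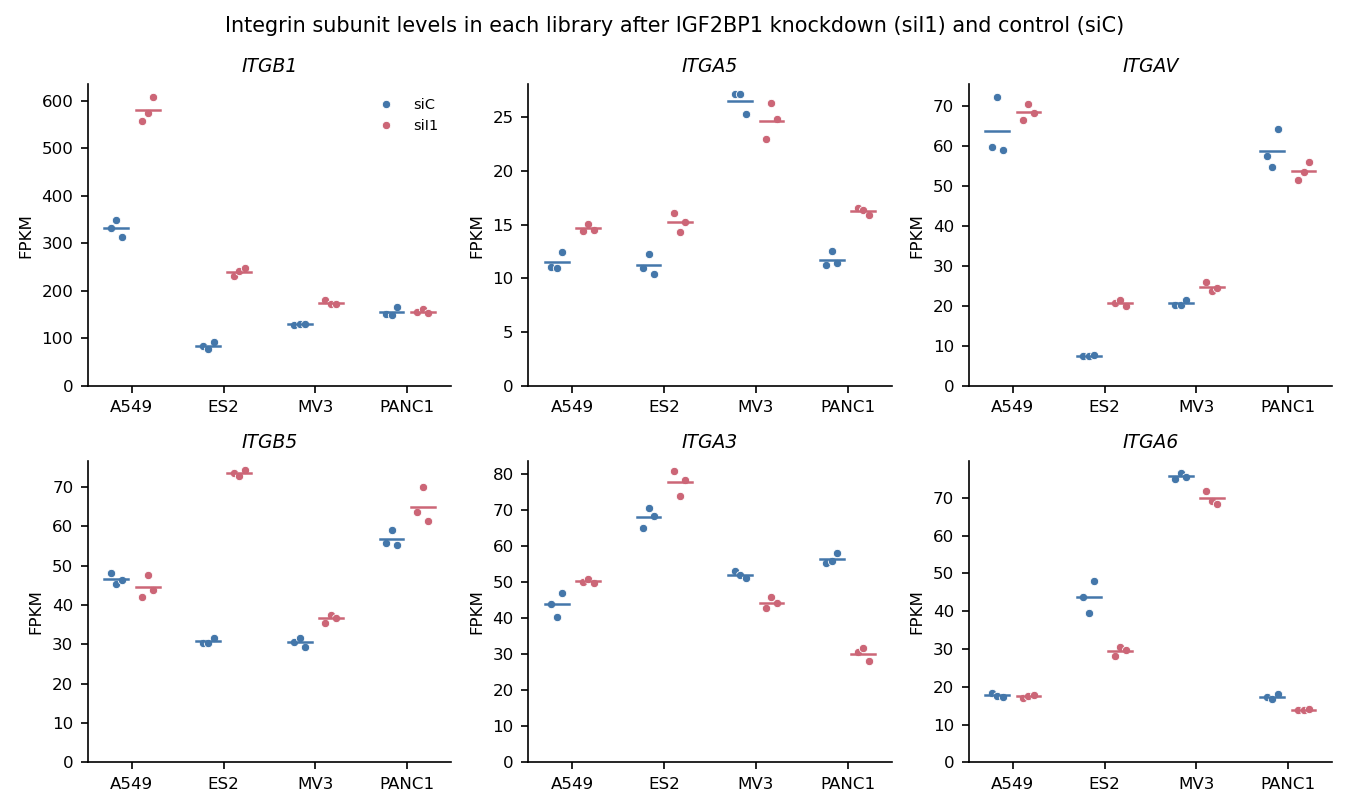
FPKM (linear axis from 0) of 6 integrin subunits in each library of the 4 lines, with 3 siC (blue) and 3 siI1 (red) libraries per line and a bar at each group mean. ITGB1, ITGAV and ITGB5 stand far apart between conditions in ES2, ITGA3 falls in PANC1, ITGA6 in ES2, and ITGB1 of PANC1 overlaps; the rise of ITGA5 in PANC1 turns to -0.28 (log2) under same-sum scaling.

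Of the laminin-binding subunits, ITGA6 fell in 3 lines and ITGA3 moved in both directions. ITGA6 (chr2:172427354-172506459, plus strand) fell in ES2 from 43.7, 39.4 and 47.9 to 28.2, 30.6 and 29.8 FPKM. In PANC1 it fell from 17.4, 16.7 and 18.1 to 13.8, 13.998 and 14.01 FPKM and in MV3, where it was second to ITGB1 in abundance, from 75.1, 76.6 and 75.4 to 71.9, 69.3 and 68.5 FPKM. The log2 fold changes were -0.55 in ES2, -0.31 in PANC1 and -0.12 in MV3 (limma adjusted p = 0.00431, 0.00928 and 0.0234), and the groups did not overlap. The small MV3 change lost its call without siC replicate 1 or 2 or siI1 replicate 2 or 3 (adjusted p = 0.0554 to 0.0911) and under same-sum scaling (0.204). In A549, 18.5, 17.7 and 17.4 FPKM in siC overlapped with 17.03, 17.7 and 17.8 FPKM in siI1 libraries.

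ITGA3, which pairs with ITGB1 to bind epithelial laminins (chr17:50055968-50090481, plus strand), fell most in PANC1, from 55.4, 55.8 and 58.05 to 30.7, 31.7 and 28.3 FPKM. In MV3 it fell from 53.1, 51.9 and 51.3 to 42.9, 46.01 and 44.2 FPKM, and in ES2 it rose from 65.1, 70.7 and 68.3 to 81.1, 74.03 and 78.4 FPKM. The log2 fold changes were -0.89 in PANC1, -0.23 in MV3 and 0.19 in ES2 (limma adjusted p = 0.000828, 0.00323 and 0.0418). The ES2 call was lost in 5 of 6 fits without 1 library (each but the one without siI1 replicate 2; adjusted p = 0.0518 to 0.123). A549 had 44.03, 40.4 and 47.1 FPKM in siC and 50.2, 51.01 and 49.7 FPKM in siI1 libraries, a difference that was not called (adjusted p = 0.1001). The effect differed between lines (joint limma adjusted p = 4.75e-09).

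Of the collagen receptors, which all pair with ITGB1, ITGA11 (chr15:68296532-68432163, minus strand) changed in opposite directions. It fell in A549 from 2.595, 3.24 and 3.65 to 0.915, 1.03 and 1.09 FPKM. In ES2 it rose from 0.258, 0.196 and 0.281 FPKM to 2.19, 2.23 and 2.06 FPKM, on 14 to 189 reads per library. In MV3 it rose from 3.05, 3.07 and 2.92 to 5.13, 5.98 and 5.52 FPKM. The log2 fold changes were -1.27, 1.84 and 0.78 (limma adjusted p = 0.00757, 0.000877 and 0.000449), without overlap in any of the 3 lines. A joint limma fit over genes tested in any line, added after the data were seen, found a difference between lines (adjusted p = 1.61e-10). It did so for 23 of 29 members and 34.4% of all genes in that fit. Lines in which a gene was under the filter entered that fit too, with effects drawn towards 0 by the added 0.5 FPKM. For ITGA11 this was PANC1, with 0 to 1 reads per library. ITGA2 rose in A549 (0.88) and ES2 (0.57) and fell in MV3 (-0.27), at group means between 6.05 and 29.1 FPKM. ITGA10 fell in ES2 (-0.77, limma adjusted p = 0.0386) on 14 to 42 reads per library, and lost its call in each of the 6 fits without 1 library (adjusted p = 0.0855 to 0.116) and under same-sum scaling (0.0620). ITGA1 was not called, with values of -0.71 in A549, 0.30 in ES2 and 0.01 in MV3. ITGA4, which binds fibronectin and VCAM1, fell in MV3 (-0.52, limma adjusted p = 0.0001898) and had a log2 fold change of 0.03 in ES2 without a call. ITGAM, a leukocyte subunit, was near the filter in A549 and not called (0.39). ITGAE, known as the E-cadherin receptor of T cells of the epithelium, rose in PANC1 (0.40, adjusted p = 0.0474), lost that call in each of the 6 fits without 1 library (0.0675 to 0.139) and was at -0.24 in the same-sum scaling.

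Read per class, the beta subunits carried more RNA after the knockdown in 3 lines, on a summed FPKM scale. Their sum was 126 FPKM in siC and 333 FPKM in siI1 libraries of ES2, 401 and 643 FPKM in A549, 163 and 216 FPKM in MV3, and 220.3 and 227 FPKM in PANC1 (means of 3 libraries). ITGB1 made up 82.6% of the beta sum in siC and 90.2% in siI1 libraries of A549, and 67.1% and 72.2% in ES2. The sum over alpha subunits went from 155 to 174 FPKM in ES2 and from 163 to 189 FPKM in A549, and was lower after the knockdown in MV3 (222 and 203 FPKM) and PANC1 (163 and 132 FPKM). Within the alpha sum of ES2, the share of ITGAV went from 4.87% to 11.9% and that of ITGA6 from 28.1% to 16.97%. In PANC1 the share of ITGA3 went from 34.6% to 22.8%. Shares do not depend on how the libraries were scaled, and these sums and shares are descriptions with no test.

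**Figure D3:**
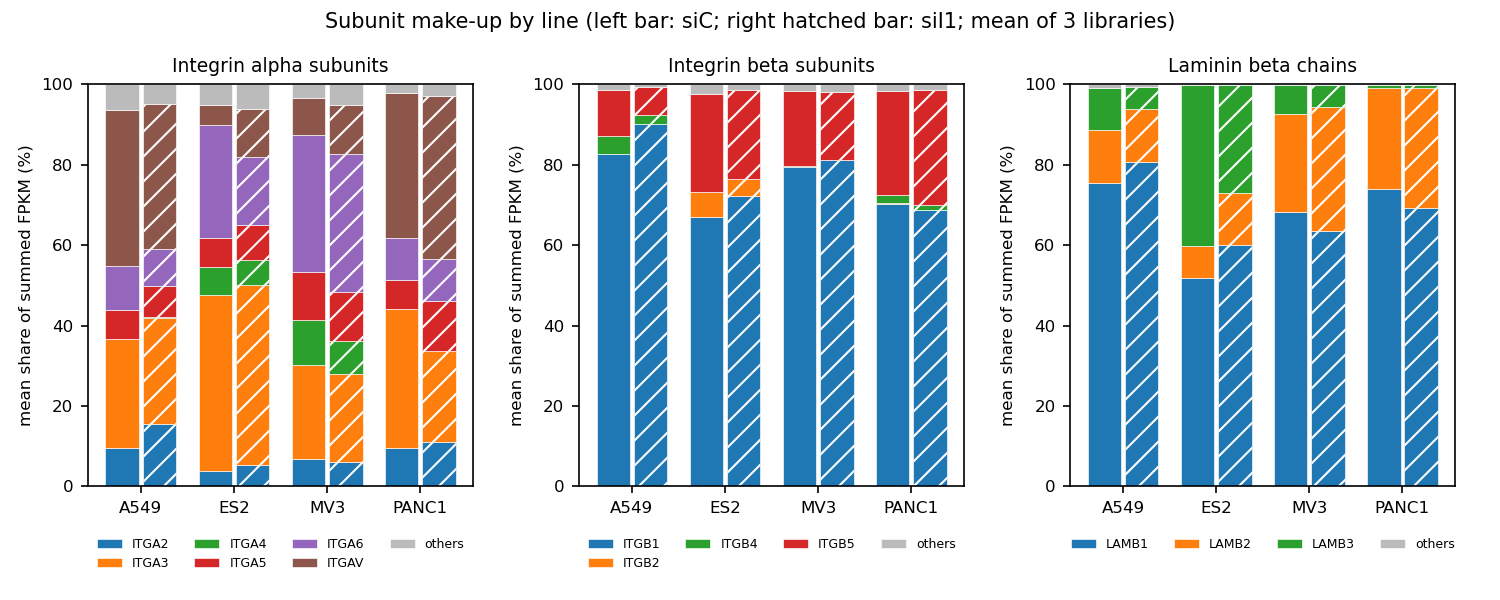
Share of the summed FPKM of a class (percent, mean of 3 libraries) taken by each integrin alpha subunit, integrin beta subunit and laminin beta chain in the 4 lines, with siC as the plain left bar and siI1 as the hatched right bar of each line; subunits under 4% in every group are pooled as others. ITGB1 takes most of the beta bars in each line, ITGAV widens and ITGA6 narrows in ES2, ITGA3 narrows in PANC1, and LAMB3 narrows in A549 and ES2.

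Among the laminins, LAMC1, the gamma chain of most laminin trimers (chr1:183023420-183145592, plus strand), rose in each line. It was at 55.5, 54.2 and 57.04 FPKM in siC and 70.6, 70.2 and 70.3 FPKM in siI1 libraries of A549, and at 19.9, 21.4 and 19.9 against 29.2, 26.2 and 25.9 FPKM in ES2. In MV3 the levels were 52.6, 53.6 and 51.98 against 59.3, 63.1 and 63.4 FPKM, and in PANC1 21.99, 23.9 and 23.9 against 29.1, 30.6 and 29.1 FPKM. In each line all 3 siI1 libraries were above all 3 siC libraries, with log2 fold changes ± SE of 0.34 ± 0.04 (A549), 0.40 ± 0.06 (ES2), 0.23 ± 0.03 (MV3) and 0.34 ± 0.06 (PANC1) (limma adjusted p = 0.00468, 0.00634, 0.00344 and 0.00822). The PANC1 value is relative to the other genes. With libraries scaled to the same sum the value was -0.40 (adjusted p = 0.0628), 0.28 above the median of all genes.

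The window of 250 bases before the LAMC1 start (GRCh38.p14, chr1:183023170-183023419, plus strand) is shown because LAMC1 was called in the same direction in all 4 lines. Capitals mark GGGCGG or its reverse complement.
LAMC1: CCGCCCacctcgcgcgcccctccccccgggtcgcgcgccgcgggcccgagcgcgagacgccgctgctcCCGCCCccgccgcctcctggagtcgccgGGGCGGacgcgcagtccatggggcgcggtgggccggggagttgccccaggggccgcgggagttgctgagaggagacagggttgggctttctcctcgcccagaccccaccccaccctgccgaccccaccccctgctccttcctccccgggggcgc
It held 3 SP1 matches, had a GC content of 79.6% and none of the other motifs searched.

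LAMB3 and LAMA3 encode chains of the same epithelial trimer, which anchors hemidesmosomes through ITGA6 and ITGB4, yet they changed in opposite directions in A549 and ES2. LAMB3 (chr1:209614870-209652425, minus strand) fell in A549 from 10.8, 8.898 and 9.002 to 4.11, 3.47 and 3.73 FPKM. In ES2 it fell from 50.5, 51.6 and 55.9 to 33.9, 30.4 and 30.9 FPKM, and in MV3 from 4.56, 4.38 and 4.13 to 3.38, 3.69 and 3.86 FPKM. The groups did not overlap in any of these lines, and the log2 fold changes were -1.23, -0.72 and -0.23 (limma adjusted p = 0.00192, 0.000865 and 0.03897). The MV3 call was lost in 5 of 6 fits without 1 library (each but the one without siC replicate 3; adjusted p = 0.0502 to 0.114). LAMB3 was under the filter in PANC1, with group means of 0.301 and 0.2003 FPKM. Its share of the summed beta chains went from 40.1% to 26.9% in ES2 and from 10.3% to 5.42% in A549.

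LAMA3 (chr18:23689453-23956222, plus strand) rose in the same lines, in A549 from 4.82, 5.24 and 5.18 to 7.29, 7.45 and 7.47 FPKM, and in ES2 from 1.405, 1.71 and 1.68 to 4.62, 4.45 and 4.05 FPKM. Neither comparison overlapped, with log2 fold changes of 0.50 and 1.22 (limma adjusted p = 0.0103 and 0.000864). PANC1 had 1.27, 1.26 and 1.25 FPKM in siC and 0.822, 1.11 and 0.967 FPKM in siI1 libraries, which were not called (adjusted p = 0.2504), and MV3 means were 0.0997 and 0.138 FPKM. Its share of the summed alpha chains was 13.6% in siC and 24.7% in siI1 libraries of A549, and 11.9% and 21.4% in ES2.

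The windows before a start site of LAMA3 and of LAMB3 are shown because the chains share a trimer and moved in opposite directions, and because these were the members with an AP-1 match. They lie at GRCh38.p14 chr18:23872770-23873019 (plus strand) and chr1:209651375-209651624 (minus strand). Capitals mark TGANTCA (AP-1) and GGGCGG (SP1) on either strand.
LAMA3: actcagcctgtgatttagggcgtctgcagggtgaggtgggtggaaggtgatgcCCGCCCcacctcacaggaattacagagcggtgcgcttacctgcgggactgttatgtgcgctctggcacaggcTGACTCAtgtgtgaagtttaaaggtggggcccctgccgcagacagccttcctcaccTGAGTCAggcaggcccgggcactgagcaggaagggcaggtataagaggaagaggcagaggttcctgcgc
LAMB3: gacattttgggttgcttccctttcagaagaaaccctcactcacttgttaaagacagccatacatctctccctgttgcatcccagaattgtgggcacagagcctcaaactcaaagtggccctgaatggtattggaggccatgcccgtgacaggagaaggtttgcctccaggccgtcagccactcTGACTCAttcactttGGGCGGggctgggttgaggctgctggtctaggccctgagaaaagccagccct
LAMA3 held 2 AP-1 matches and 1 SP1 match, and LAMB3 held 1 of each in this window. The LAMB3 windows before its other RefSeq starts had no AP-1 match.

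LAMA4, the alpha chain of laminins of blood vessels and mesenchymal tissues (chr6:112107931-112254939, minus strand), rose in the lines in which it was tested. It went from 8.96, 9.85 and 8.93 to 13.5, 12.6 and 13.8 FPKM in ES2, from 8.88, 8.41 and 8.68 to 14.1, 14.4 and 13.9 FPKM in MV3 and from 1.08, 1.04 and 1.17 to 2.02, 1.88 and 1.95 FPKM in PANC1. There was no overlap, and the log2 fold changes were 0.50, 0.68 and 0.62 (limma adjusted p = 0.00311, 0.000144 and 0.0138). Without siI1 replicate 1 the PANC1 value missed the threshold (adjusted p = 0.0534), as it did in the same-sum scaling (value 0.05, adjusted p = 0.857). In A549 the group means were 0.0352 and 0.104 FPKM. In MV3 its share of the summed alpha chains went from 31.3% to 43.5%.

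LAMB1, the beta chain of many basement membrane laminins (chr7:107923799-108003213, minus strand), had the highest siC mean of the laminin genes in A549, ES2 and PANC1 (in PANC1 overlapping with LAMA5). It fell in A549 from 71.1, 68.96 and 69.2 to 55.4, 57.03 and 56.1 FPKM and in PANC1 from 31.005, 27.7 and 36.9 to 20.9, 22.7 and 20.5 FPKM. The log2 fold changes were -0.31 and -0.56 (limma adjusted p = 0.00578 and 0.01402), without overlap. The A549 value missed the threshold when the prior had no trend (0.0537). Without siI1 replicate 1 the PANC1 value missed the threshold (adjusted p = 0.0509). In ES2 66.5, 68.4 and 68.9 FPKM overlapped with 68.7, 72.8 and 70.7 FPKM, and in MV3 40.2, 40.7 and 41.9 FPKM with 42.2, 40.04 and 40.7 FPKM. LAMB2, the alternative beta chain, rose in ES2 (0.51) and MV3 (0.41) and fell in A549 (-0.41, limma adjusted p = 0.0312), where the call was lost in each of the 6 fits without 1 library (0.0553 to 0.0963) and in the same-sum scaling (0.0505). LAMA5, the alpha chain of most adult epithelial basement membranes, fell in A549 from 32.3 ± 3.54 to 22.5 ± 0.804 FPKM (SD, n = 3; log2 fold change -0.51, limma adjusted p = 0.0134), which leaving out siI1 replicate 2 ended (0.0501). LAMA5-AS1 on the opposite strand was at 0 to 0.271 FPKM in siC and 0.261 to 1.00 FPKM in siI1 libraries of A549. LAMA2 in MV3 (0.18), LAMB4 in A549 (-0.43) and LAMC3 in PANC1 (-0.50) were not called.

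**Figure D4:**
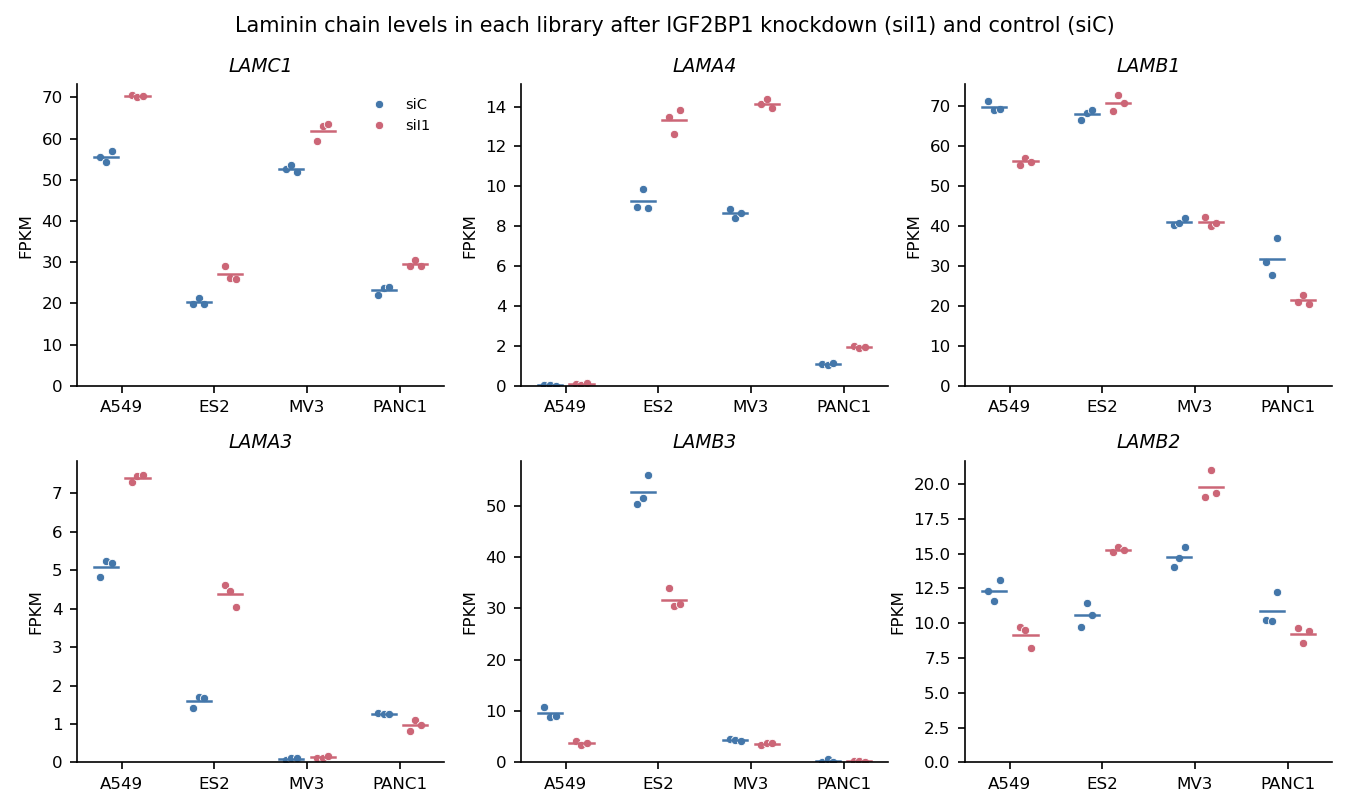
FPKM (linear axis from 0) of 6 laminin chains in each library of the 4 lines, with 3 siC (blue) and 3 siI1 (red) libraries per line and a bar at each group mean. LAMC1 is higher in siI1 libraries of each line (in PANC1, -0.40 on the log2 scale under same-sum scaling), LAMB3 is lower and LAMA3 higher in A549 and ES2, and LAMB1 is lower in A549 and PANC1.

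Other genes of matrix adhesion were read from lists of 15 to 30 genes and a hemidesmosome list of 8, in the deposited scaling. Same-sum values are not given for these lists, and in PANC1 that scaling called 8870 genes lower and 96 higher of 16238. Of all tested genes, 7.83% fell and 5.93% rose in A549, 13.0% and 10.5% in ES2, 19.5% and 16.3% in MV3, and 13.4% and 11.3% in PANC1, and several list counts, such as those of adaptors in ES2 and of other laminin receptors in ES2 and MV3, lay near these shares. Of the 13 other basement membrane genes tested in ES2, 8 rose and the other 5 were not called (median 0.70), whereas in PANC1 5 of 9 fell and the other 4 were not called (median -0.41). In MV3, 7 of 11 rose and 2 fell, and in A549 2 of 15 fell with the other 13 not called. Of the integrin ligands, 10 of 16 rose and 3 fell in ES2, 1 of 14 rose and 4 fell in A549, 4 of 14 rose and 6 fell in MV3, and 2 of 12 rose and 3 fell in PANC1. FBN1, the microfibril protein fibrillin, had the largest called rise of these lists in ES2, from 2.999 ± 0.203 to 14.7 ± 0.576 FPKM (log2 fold change 2.12, limma adjusted p = 6.23e-05), and in A549 (0.95). Cytoplasmic adaptors of integrins fell in A549 in 9 of 28 cases with the other 19 not called, and 4 of 26 fell and 6 rose in ES2, 10 of 26 fell and 6 rose in MV3, and 4 of 23 fell and 6 rose in PANC1. FBLIM1 (migfilin), an adaptor that links filamin to adhesions, had the largest called fall of A549 (-1.03, beside -1.08 for the uncalled collagen gene COL4A4), CD9, a tetraspanin, that of ES2 (-0.97), EDIL3, a ligand of ITGAV integrins, that of MV3 (-0.82) and CDH1, E-cadherin, that of PANC1 (-1.59). KRT14, a basal keratin, had the largest called rise in MV3 (1.27), and CTGF, a matricellular protein, that in PANC1 (0.97, adjusted p = 0.0342).

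Among the laminin receptors other than integrins, 3 of 14 fell and the others were not called in A549, and 2 of 13 fell and 1 rose in ES2, 2 of 13 fell and 3 rose in MV3, and 4 of 14 fell and 3 rose in PANC1. SDC1, a syndecan that binds laminin through its heparan sulphate chains, fell in all 4 lines, by 0.65 (A549), 0.65 (ES2), 0.41 (MV3) and 0.54 (PANC1) on the log2 scale (limma adjusted p = 0.00178, 0.00126, 0.00178 and 0.0257). Its mean level in A549 went from 72.9 ± 2.89 to 46.2 ± 2.39 FPKM (SD, n = 3), and in ES2 from 59.9 ± 4.52 to 37.9 ± 1.27 FPKM. In the hemidesmosome list, which also holds ITGA6 and ITGB4, 3 of 5 tested genes fell in PANC1 and 1 of 6 in A549 with the others not called, while 1 of 5 fell and 1 rose in ES2 and 2 of 6 fell and 3 rose in MV3.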

How the data were processed

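The authors clipped reads (cutadapt 1.14), aligned them to hg38 (HISAT2 2.1.0) and counted them per Ensembl gene (featureCounts 1.5.3), per the labels and the study's methods. The strand setting was not given in the sources used here. The deposited tables, 1 per line, hold FPKM values per library, scaled within a line by the authors' edgeR 3.30.3, and also the authors' own log2 fold change, p-value and FDR for siI1 against siC, which were not used. Multiplying FPKM by the listed gene length gave values that were whole numbers of a fixed step per library in 100% of cases (tolerance 0.001), and so the reads.

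Within a line, limma 3.58.1 (R 4.3.3) compared 3 siC with 3 siI1 libraries on log2(FPKM + 0.5) for the genes that averaged 0.5 FPKM or more there, with a trended prior, and p-values were adjusted by Benjamini-Hochberg across those genes. Differences between lines were tested by an F test in 1 fit over 24 libraries and 8 groups. The fits were tested on simulated data first. The members and the gene lists were chosen with earlier results of these data known. Values in every library were printed for members called in the same direction in at least 3 lines, called with a log2 fold change of 1 or more in size, or with a siC mean of at least 50 FPKM. A few genes are counted but not reported by name here. For the other lists, genes called in the same direction in all 4 lines and the largest called fall and rise per line were named.

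Replicates of a condition differed by more than counting noise (chi-square per gene 1.54 to 15.1 over 24 pairs). Each label was a separate biological replicate, and depth was lowest in A549. Gene positions came from GENCODE 44 (hg38) and upstream windows from RefSeq (GRCh38.p14). Alternatives covered the pseudocount, the filter, scaling, voom on the recovered reads, the replicate block, each library left out and a fold minimum.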

Additional observations from a re-analysis of the deposited data

Results flagged for a closer look

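The knockdown effect differed between lines for the 11 members named here, by the joint limma F test of the difference between the within-line log2 fold changes. The adjusted p values were 7.52e-10 for ITGB5, 1.07e-09 for ITGB1, 3.24e-09 for ITGAV and 4.75e-09 for ITGA3. They were 1.28e-07 for ITGA2, 3.05e-06 for LAMB2, 6.94e-05 for ITGA6 and 9.43e-05 for LAMB1. For ITGA5 the value was 0.000232 and for LAMA5 0.0132. ITGA11 was not tested in PANC1, where it had 0 to 1 reads per library. It had an adjusted p of 1.61e-10 in the fit over genes tested in any line, which was added after the data were seen. In that fit its PANC1 effect was held near 0 by the added 0.5 FPKM, and its ES2 siC mean of 0.245 FPKM was under the filter. Of the 11 members, ITGA2, ITGA3, ITGA11 and LAMB2 were called in opposite directions in different lines, and ITGB1, ITGB5 and ITGAV had their largest rise in ES2. The only called rise of ITGA3, in ES2, was lost in 5 of 6 fits without 1 library. The only called fall of LAMB2, in A549, was lost in each of the 6. Over all genes, the main test called 45.0% of 12816, and the added fit 34.4% of 21740. Each of the members named from the main test was also called under same-sum scaling, where ITGB1 had 1.15e-07 and ITGA3 1.2e-08. With the replicate block LAMA5 was not called (adjusted p = 0.0636). Line and harvest time cannot be told apart for PANC1, and the contribution of harvest time was not tested.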

How the results depend on the processing

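Of the 50 calls of a member in a line, 37 kept their direction and their call in each alternative other than scaling to the same sum, and 11 lost the call in at least 1 fit without 1 library. Pseudocounts of 0.1 and 1, median-of-ratios scaling and voom on the recovered reads ended none of the 50 calls, leaving out the filter ended 4 (among them ITGA3 in ES2, LAMB3 in MV3 and ITGAE in PANC1), and a prior without a trend ended 7. A filter at 1 FPKM left ITGA10 in ES2 untested. Over all genes, voom called 2339 lower and 1837 higher in A549, where limma on log2 FPKM called 1441 and 1092, and 2944 and 2414 in ES2, 3710 and 3341 in MV3, and 2760 and 2256 in PANC1. In PANC1, same-sum scaling by limma gave 14 members lower and 0 higher in place of 4 and 4, beside 8870 and 96 of 16238 genes. At an unadjusted limma p under 0.05, 15 members were lower and 0 higher. Of the called rises, ITGA5 turned to -0.28, ITGAE to -0.24 and LAMC1 to -0.40, where the median of all genes was -0.68. In PANC1, voom called 8 members lower, beside 2760 of 15846 genes. With a change of 1 or more (log2, either direction) required, 3 members were lower and 0 higher in A549, 0 lower and 6 higher in ES2, and 0 in either direction in MV3 and PANC1. Over all genes, this rule gave 223 lower and 155 higher of 18411 in A549, and 165 and 317 of 16920 in ES2. It gave 71 and 207 of 16380 in MV3, and 221 and 177 of 15846 in PANC1. Without 1 library, 4 to 5 members were lower in A549 (4 without siI1 replicate 2), 3 to 5 in MV3 (3 without siC replicate 1 or 2 or siI1 replicate 2 or 3), and 2 to 3 were higher in PANC1 (2 without siI1 replicate 1). Over all genes, these fits called 796 to 1036 lower of 18362 to 18459 in A549 (main fit, 1441). They called 2498 to 3037 lower of 16270 to 16465 in MV3 (main fit, 3190), and 1041 to 1888 higher of 15701 to 15903 in PANC1 (main fit, 1796). Same-numbered libraries did not deviate together (correlations -0.06 to 0.07 over 12 pairs), and a replicate block ended 11 calls. The block gave 3 lower and 3 higher members in A549 (622 and 379 of 18411 genes) and 3 lower in MV3 (2652 of 16380 genes). The test between lines called 10 members with the block (38.3% of all genes) and 12 under same-sum scaling (70% of all genes). It called 23 of 29 members (34.4% of all genes) when genes tested in any line were used, an alternative chosen after seeing the data. Lines in which a gene was under the filter entered that fit, with effects drawn towards 0 by the added 0.5 FPKM. ITGB6, tested in A549 alone, and ITGB2, tested in ES2 alone, were among those called, so a call there need not mean different responses. The cause of the shifts between alternatives was not tested. Depth limited members under about 1 FPKM, mostly in A549.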
